A study of Mus musculus with 10 samples.

Results

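The subunits of the mitochondrial respiratory chain and of ATP synthase were followed in the cerebral cortex of mice carrying the *p97FE65* mutation and of their littermates. Members were taken by gene symbol: every gene whose symbol began with Nduf, Uqcr, Cox4 to Cox8 or Atp5, together with Sdha, Sdhb, Sdhc and Sdhd, was included if a probe set named that gene alone, and Ndufc2 was left out. This gave 83 of the 12393 genes on the array, read by 154 of 22626 probe sets. They were 32 subunits of complex I, 4 of complex II, 8 of complex III, 16 of complex IV and 17 of ATP synthase, 5 complex I assembly factors (Ndufaf genes) and Cox7a2l, a factor that helps complexes III and IV join in supercomplexes. Each gene was represented by its brightest probe set over the 10 arrays. In 44 genes further probe sets, 71 in all, were kept as a check, and 39 genes had 1 probe set.

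RNA came from the cortex of 5 male mice labelled *p97FE65* null and 5 males labelled wild type, all 6 months old, and each mouse was measured on its own Affymetrix mouse expression array. The null mice lack full-length FE65, an adaptor protein that binds the tail of the amyloid precursor protein. The mutation was made in embryonic stem (ES) cells of another strain than C57Bl/6J, to which the line was then backcrossed. The null mice can therefore carry genes of the ES cell strain around FE65 on chromosome 7 that their wild type littermates lack. The mice were littermate pairs, but no source used here says which arrays form a pair.

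The groups are called by their labels throughout. Gprc5b probe set 1451411_at was lower in the mice labelled null by 1.23 on the log2 scale (null minus wild type -1.23, SE 0.36), which runs opposite to the direction in the study's tables. If the labels are turned, every sign given here turns with them. FE65 itself (Apbb1, probe set 1423892_at) ranged from 10.80 to 11.37 in the mice labelled null and from 10.85 to 11.13 in those labelled wild type. Its other probe set, 1423893_x_at, ranged from 11.30 to 11.51 in the mice labelled null and from 10.98 to 11.23 in those labelled wild type, without overlap (difference 0.26, SE 0.06, limma p = 0.00118, adjusted p = 0.999, exact permutation p = 0.00794, two-sided). Both probe sets lie near the end of the transcript, beyond the deleted exon, in a part that mutant and wild type RNA share, so their level does not test the deletion. Their direction, higher in labelled null, is also opposite to that in the study's tables. The folds here were 2.35 for Gprc5b 1451411_at, 1.08 for Apbb1 1423892_at and 1.19 for Apbb1 1423893_x_at. The study's tables give the same sizes, each in the opposite direction. Its RT-PCR of the region read by 1451411_at also found Gprc5b higher in null forebrains. Whether the labels are turned was not tested.

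The respiratory chain passes electrons from NADH, at complex I, or from succinate, at complex II, through ubiquinone to complex III, then through cytochrome c to complex IV, where oxygen is reduced to water. Complexes I, III and IV pump protons across the inner mitochondrial membrane, and ATP synthase lets the protons flow back to make ATP. Neurons draw most of their ATP from this pathway, which pays for ion pumping and synaptic transmission. All subunits studied here are encoded in the nucleus.

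The expression of these genes differed little between the labels. None of the 83 members passed an adjusted p of 0.05 (limma, Benjamini-Hochberg over all 22626 probe sets; 0 of 83, against 0.0% of all 12393 genes), and each member's adjusted p was at least 0.999. At an unadjusted p under 0.05, 4 of 83 members (4.82%) were called, against 3.94% of all genes. All 4 were lower in labelled null (4.82%, against 2.61% of all genes) and 0 were higher (against 1.33%). They were Cox6c, Atp5k, Atp5j and Ndufa1. Run on the same values, the methods' t-test also called 4 lower and 0 higher at that threshold, and 0 after adjustment. Of all genes it called 1.90% lower and 1.63% higher.

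Respiratory chain genes are bright on this array, and bright genes as a whole leaned the same way. Among the 1903 genes with a mean of at least 9 (log2, a limit chosen after the values were seen), 7.46% were called at that unadjusted p, 6.67% lower in labelled null and 0.788% higher. Of the 62 members this bright, 4 (6.45%) were lower. The share of members was thus close to that of all genes above this limit, which were not matched further for brightness. The median difference over the 83 members was -0.02 (null minus wild type, log2), with 53 members below 0 and 30 above, against a median of -0.00 over all genes and -0.05 over the bright genes. After quantile normalization of the arrays the median over members became 0.01 and that over bright genes 0.01, so that this small lean changed sign with the scaling.

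**Figure D1:**
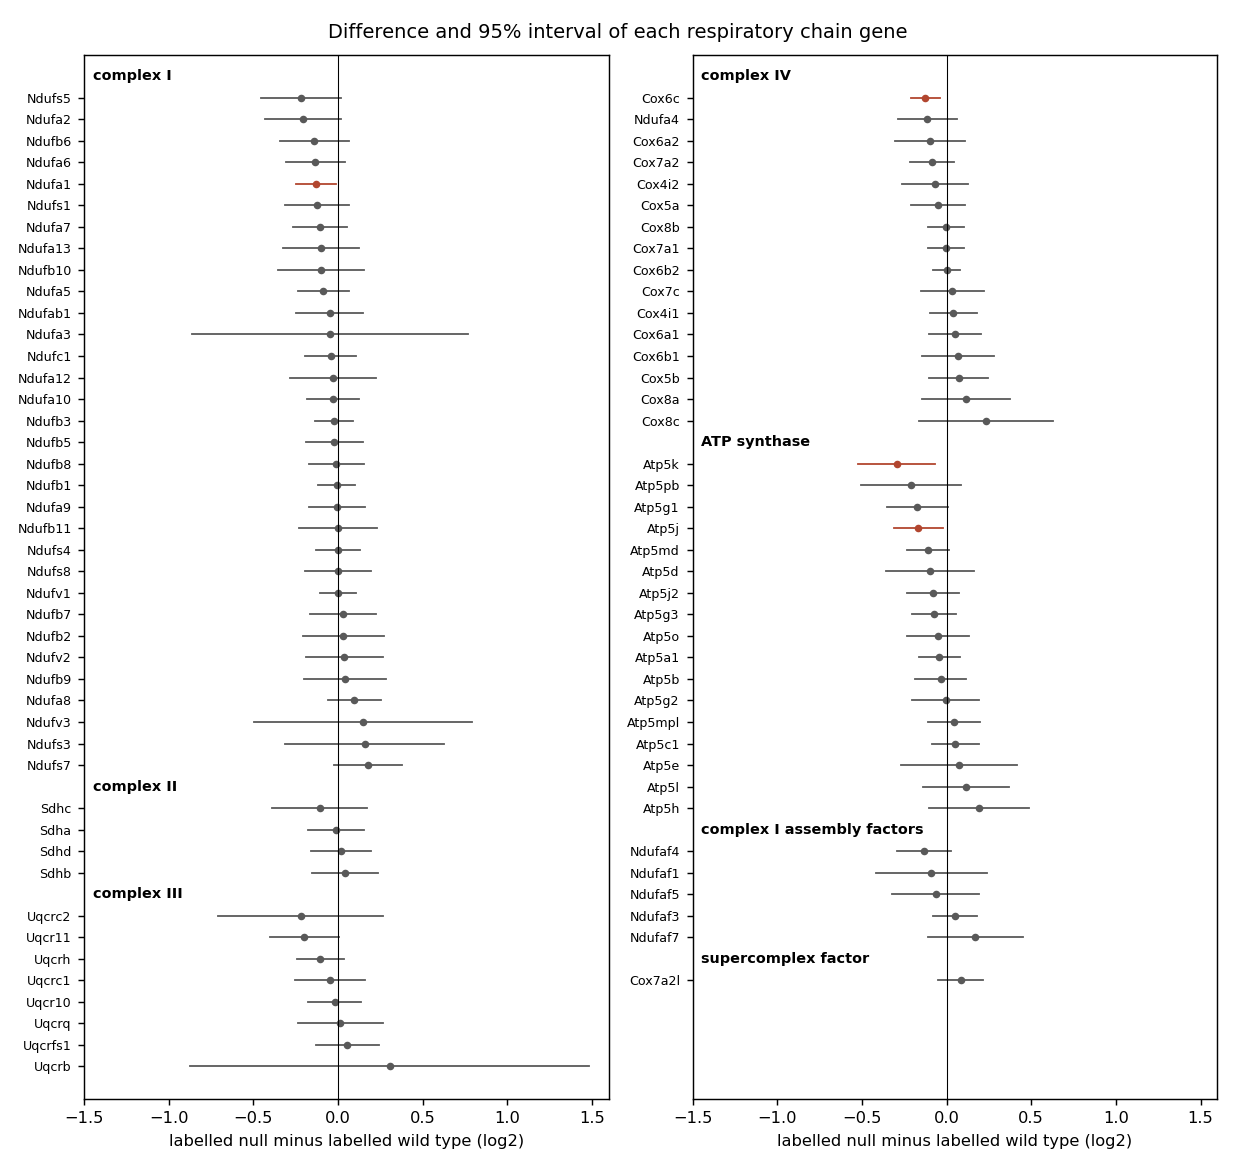
Difference between labels (labelled null minus labelled wild type, log2; points) with its 95% interval (lines, limma) for each of the 83 genes, grouped by complex. Red marks the 4 genes with an unadjusted p under 0.05, all below 0, and the longest intervals belong to Uqcrb, Ndufa3 and Ndufv3.

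For most members the data bounded the difference in signal fairly closely. The 95% interval of a member's difference had a median half-width of 0.19, and in 75 of 83 members it lay within 0.5 of 0 on both sides. The difference itself was within 0.1 in 54 members, within 0.2 in 76 and within 0.3 in 82, Uqcrb being the exception. These counts include 8 members with a mean under 4, whose dim probe sets say little of the transcript. Of the 75 members with a mean of at least 4, 67 had an interval within 0.5 of 0. The difference of these was within 0.1 in 46, within 0.2 in 68 and within 0.3 in 74. An interval that includes 0 does not show that the levels are equal, and the number of arrays limits the precision. Spread among mice of a label was small for most members, with a median SD of 0.14, and it was over 0.3 in 6 of them (Cox8c, Ndufs3, Uqcrc2, Ndufv3, Ndufa3 and Uqcrb).

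Nuclear genes of the respiratory chain are known to share a few promoter elements, which is why promoter stretches are shown for Atp5k, Atp5j and Ndufa1, 3 of the 4 members called. RefSeq promoters (assembly GRCm38.p6, 250 bases before to 50 after the start of the gene) were found for 69 of the 83 members and searched on both strands. The NRF1 motif, searched as GCGCA followed by any base and GCGC, was in 16 of the 69 (23.2%), against 5.19% of 27025 genes. The YY1 motif AAGATGGC was in 9 (13.04%, against 3.19%), the GABPA motif CCGGAAGT in 5 (7.25%, against 4.31%) and the ERR-alpha motif TNAAGGTCA in 2 (2.90%, against 1.43%). No 2 of these motifs are contained in each other. A match is a run of letters and not a shown binding site.

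Of these 3, Atp5k held the NRF1 motif, Atp5j the YY1 motif, and Ndufa1 none of the 4 motifs in this window. The 120 bases before the start of each gene are given from 5′ to 3′ on the gene's strand, with the motif in capitals. Atp5j has 2 starts in the table, and the one whose promoter holds the motif is shown.
Atp5k, chr5:108434400-108434519, minus strand: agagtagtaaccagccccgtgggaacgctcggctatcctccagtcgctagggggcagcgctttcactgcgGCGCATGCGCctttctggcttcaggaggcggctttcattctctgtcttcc
Atp5j, chr16:84834977-84835096, minus strand: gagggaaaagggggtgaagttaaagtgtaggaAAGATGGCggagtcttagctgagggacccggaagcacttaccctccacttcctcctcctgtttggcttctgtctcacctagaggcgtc
Ndufa1, chrX:37191239-37191358, minus strand: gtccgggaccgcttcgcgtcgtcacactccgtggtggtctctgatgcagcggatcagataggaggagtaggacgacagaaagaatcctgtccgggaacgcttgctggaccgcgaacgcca
The motif began 50 bases before the start in Atp5k and 88 bases before it in Atp5j. Over the members holding the NRF1 motif the median difference was -0.05, and 11 of 16 were below 0. Over those holding the YY1 motif it was -0.04, and 8 of 9 were below 0, Ndufs7 being the one above. Over those with the GABPA motif it was 0.12, and 2 of 5 were below 0. These values describe the members and were not tested.

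Complex I takes electrons from NADH. Of its 32 measured subunits, 1 was lower in labelled null at the unadjusted p (Ndufa1) and 0 were higher, with a median difference of -0.02. That 1 call (3.1%) stands against 2.61% lower among all genes and 6.67% among the bright genes. Ndufa1, a small membrane subunit encoded on the X chromosome that is needed for assembly of the complex, was at 11.91, 11.91, 11.86, 11.83 and 11.99 in the 5 mice labelled null. It was at 11.95, 12.11, 12.13, 12.04 and 11.92 in those labelled wild type. The groups overlapped, since labelled null mouse 5 lay above labelled wild type mice 1 and 5. The difference was -0.13 (SE 0.05, 95% interval -0.25 to -0.01, limma p = 0.0342, adjusted p = 0.999; exact permutation p = 0.0397, two-sided).

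The core subunits of complex I, which carry the flavin and the iron-sulphur clusters, showed differences on both sides of 0. Ndufv1, which binds NADH and the flavin, averaged 11.68 ± 0.06 in labelled null and 11.68 ± 0.07 in labelled wild type (SD, n = 5 each). Its difference of 0.00 had an interval from -0.10 to 0.11. Ndufv2, its partner in the electron input module, differed by 0.04 (interval -0.19 to 0.27). Ndufs1, the largest subunit of that module, differed by -0.13 (-0.32 to 0.06). Ndufs8, an iron-sulphur subunit of the arm that leads to ubiquinone, differed by -0.00 (-0.20 to 0.20). None of these intervals left 0 out.

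Ndufs7 carries the last iron-sulphur cluster before ubiquinone. It was at 11.08, 10.77, 10.69, 10.94 and 10.95 in the mice labelled null and at 10.87, 10.59, 10.61, 10.87 and 10.61 in those labelled wild type. It had the smallest p of any member above 0 (difference 0.18, SE 0.09, limma p = 0.0762, adjusted p = 0.999, exact permutation p = 0.127, two-sided), with overlapping groups. Its other probe set, 1424313_a_at, differed by -0.05 (SE 0.12). Ndufs3, a core subunit of the same arm, differed by 0.16 (SE 0.21), and that sign rested on labelled wild type mouse 2, which was at 9.94 while the other mice of its label were at 10.95 to 11.18. Without that mouse the difference was -0.06 and did not pass the unadjusted threshold.

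After Ndufa1, the accessory subunits with the lowest p below 0 were Ndufs5 (difference -0.22, SE 0.11) and Ndufa2 (-0.21, SE 0.10), neither of which passed the unadjusted threshold. Ndufa8, above 0, differed by 0.10 (SE 0.07). Ndufv3, which sits at the NADH end of the complex, ranged from 5.64 to 6.51 in labelled null and from 5.20 to 6.81 in labelled wild type. Its spread within labels was wider than its difference of 0.15 (SE 0.29). The 5 assembly factors had 0 calls in either direction and differences from -0.13 (Ndufaf4) to 0.17 (Ndufaf7).

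Complex II, succinate dehydrogenase, links the chain to the TCA cycle. Sdha, its flavin-binding catalytic subunit, averaged 11.45 ± 0.09 in labelled null and 11.47 ± 0.15 in labelled wild type (SD, n = 5 each), a difference of -0.01 (SE 0.08). Another probe set of the same gene, 1426689_s_at, was nearly as bright (mean 11.45 over the 10 arrays) but gave a different answer. It was at 11.28, 11.40, 11.43, 11.23 and 11.44 in the mice labelled null and at 11.44, 11.66, 11.44, 11.50 and 11.63 in those labelled wild type. These groups met at 11.44, and the difference was -0.18 (SE 0.06, limma p = 0.0181, adjusted p = 0.999; exact permutation p = 0.0238, two-sided). Over the 10 mice the values of both probe sets were not alike (r = -0.33). Sdhb, the iron-sulphur subunit, differed by 0.04 (SE 0.09). The membrane anchors Sdhc and Sdhd differed by -0.11 (SE 0.13) and 0.02 (SE 0.08), and the Sdhd probe set was dim, at 3.69 ± 0.15 in labelled null and 3.67 ± 0.12 in labelled wild type.

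Complex III hands electrons from ubiquinol to cytochrome c. Its 8 measured subunits had 0 calls in either direction and a median difference of -0.03. Uqcrfs1, the Rieske iron-sulphur protein, differed by 0.05 (SE 0.08), and the core protein Uqcrc1 by -0.05 (SE 0.09). Uqcr11, a small accessory subunit, was at 9.94, 9.91, 9.80, 9.90 and 10.17 in the mice labelled null and at 10.07, 10.45, 10.06, 10.06 and 10.08 in those labelled wild type. Mouse 5 alone among those labelled null reached the range of the mice labelled wild type (difference -0.20, SE 0.09, limma p = 0.0531, adjusted p = 0.999; exact permutation p = 0.0397, two-sided). Without labelled null mouse 5 the difference was -0.25, past the unadjusted threshold, and without labelled wild type mouse 2 it was -0.12, not past it.

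Uqcrb, which binds ubiquinone in complex III, was the member on which single mice and probe sets mattered most. On its brightest probe set, 1455997_a_at, the mice labelled null were at 13.04, 13.12, 13.20, 12.96 and 12.34, and those labelled wild type at 13.13, 10.28, 13.28, 13.28 and 13.15. The value of 10.28 in labelled wild type mouse 2 lay far below all others, and the difference of 0.30 had an SE of 0.53. Without that mouse it turned to -0.28 and did not pass the unadjusted threshold. On the dimmer probe set, 1416337_at, the mice labelled null were at 9.06, 9.10, 9.11, 8.64 and 9.13, and those labelled wild type at 9.18, 9.71, 9.29, 9.43 and 9.24. Here the groups did not overlap (difference -0.36, SE 0.12, limma p = 0.0117, adjusted p = 0.999; exact permutation p = 0.00794, two-sided, the smallest that 5 against 5 can give). Labelled wild type mouse 2, lowest on the first probe set, was highest on the second (r = -0.57 over the 10 mice). Of all probe sets, 0.331% lay without overlap lower in labelled null and 0.292% higher, 0.623% together.

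**Figure D2:**
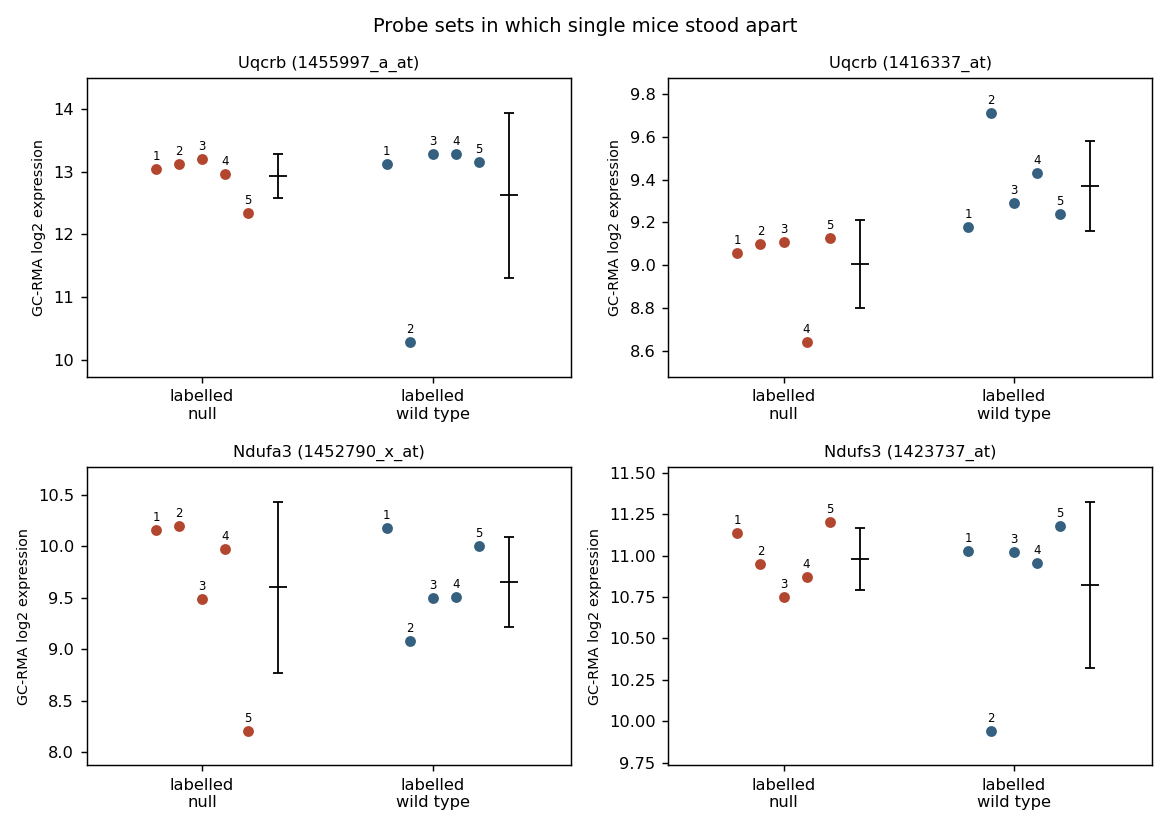
GC-RMA log2 expression in each mouse (points, numbered by replicate) for both Uqcrb probe sets, Ndufa3 and Ndufs3, with the mean and SD of each label (black bar). Labelled wild type mouse 2 is lowest of its label in Uqcrb 1455997_a_at (10.28), Ndufa3 (9.08) and Ndufs3 (9.94), and highest in Uqcrb 1416337_at (9.71); labelled null mouse 5 is lowest of its label in Uqcrb 1455997_a_at (12.34) and Ndufa3 (8.21).

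Complex IV, cytochrome c oxidase, is the site of oxygen use. Cox6c, a small membrane subunit, was the member with the smallest p. Probe set 1415970_at was at 13.57, 13.60, 13.47, 13.55 and 13.56 in the mice labelled null and at 13.68, 13.71, 13.70, 13.64 and 13.64 in those labelled wild type. The groups did not overlap, the highest value in labelled null being 13.60 and the lowest in labelled wild type 13.64. The difference was small, -0.12 (SE 0.04, interval -0.21 to -0.04, a fold of 1.09), with limma p = 0.00847, adjusted p = 0.999 and exact permutation p = 0.00794 (two-sided). Cox6c was the only member without overlap on its brightest probe set, 1 of 83, against 0.686% of all genes (0.371% lower and 0.315% higher in labelled null) and 0.946% of the bright genes (0.788% lower and 0.158% higher). A second Cox6c probe set, 1434491_a_at, averaged 10.27 ± 0.28 in labelled null and 10.62 ± 0.26 in labelled wild type (SD, n = 5 each), with overlap (difference -0.36, SE 0.15, limma p = 0.0399, adjusted p = 0.999, exact permutation p = 0.0794, two-sided).

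The other complex IV subunits used in most tissues were not called. Cox4i1, which takes part in the regulation of the oxidase by ATP, averaged 12.62 ± 0.07 in labelled null and 12.58 ± 0.12 in labelled wild type (SD, n = 5 each). The differences were 0.05 for Cox6a1, 0.07 for Cox6b1, -0.08 for Cox7a2 and 0.12 for Cox8a, with SE from 0.06 to 0.12. Ndufa4, named for complex I but found in complex IV, differed by -0.11 (SE 0.08). Without labelled wild type mouse 2 its difference was -0.18, past the unadjusted threshold. The supercomplex factor Cox7a2l differed by 0.08 (SE 0.06).

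Several subunits of complex IV have a second form made mainly in heart and skeletal muscle, lung or testis. The probe sets of the muscle forms Cox6a2, Cox7a1 and Cox8b, of the testis form Cox6b2 and of the lung form Cox4i2 all had means under 4, with differences from -0.10 to 0.00. The level of a dim probe set says little of the transcript. Cox8c, a form known from testis, was at 6.63 ± 0.13 in labelled null and 6.40 ± 0.43 in labelled wild type (difference 0.23, SE 0.18). Cox7c, a subunit used in most tissues, was likewise dim on its probe set, at 2.32 ± 0.12 in labelled null and 2.29 ± 0.16 in labelled wild type, and no difference in it could be read at that level.

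ATP synthase has a catalytic head, a rotor and a peripheral stalk. Of its 17 measured genes, 2 were lower in labelled null at the unadjusted p (Atp5k and Atp5j), 0 were higher, and 12 were below 0, with a median of -0.05. Those calls (11.8%) stand against 2.61% lower among all genes and 6.67% among the bright genes, and 14 of the 17 were bright. The 12 below 0 (70.6%) stand against 51.2% of all genes and 68.6% of the bright genes. Atp5k, subunit e, belongs to the membrane part at which ATP synthases pair and the inner membrane bends. Its brightest probe set, 1434053_x_at, was at 11.04, 11.30, 10.92, 10.92 and 11.36 in the mice labelled null and at 11.22, 11.56, 11.47, 11.32 and 11.44 in those labelled wild type. Labelled null mice 2 and 5 lay within the range of the mice labelled wild type and the other 3 below it. The difference of -0.29 (SE 0.10, interval -0.52 to -0.07) had limma p = 0.0159, adjusted p = 0.999 and exact permutation p = 0.0476 (two-sided). The other Atp5k probe sets gave smaller differences of -0.07 (1450640_x_at, SE 0.08) and -0.15 (1422525_at, SE 0.08). The ending _x_at marks probes that may also bind other transcripts.

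Atp5j, coupling factor 6, belongs to the peripheral stalk. It was at 11.27, 11.35, 11.32, 11.20 and 11.31 in the mice labelled null and at 11.38, 11.26, 11.59, 11.50 and 11.55 in those labelled wild type. Labelled wild type mouse 2 alone lay within the range of the mice labelled null (difference -0.17, SE 0.07, limma p = 0.0287, adjusted p = 0.999; exact permutation p = 0.0556, two-sided). Another stalk subunit, Atp5pb (subunit b), differed by -0.21 (SE 0.13), while Atp5h (subunit d) differed by 0.19 (SE 0.13). The value of Atp5h rested largely on labelled wild type mouse 2, at 10.98 while the other mice of its label were at 11.49 to 11.75. Without that mouse it was 0.05, and the second Atp5h probe set, 1435112_a_at, differed by -0.12 (SE 0.11).

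**Figure D3:**
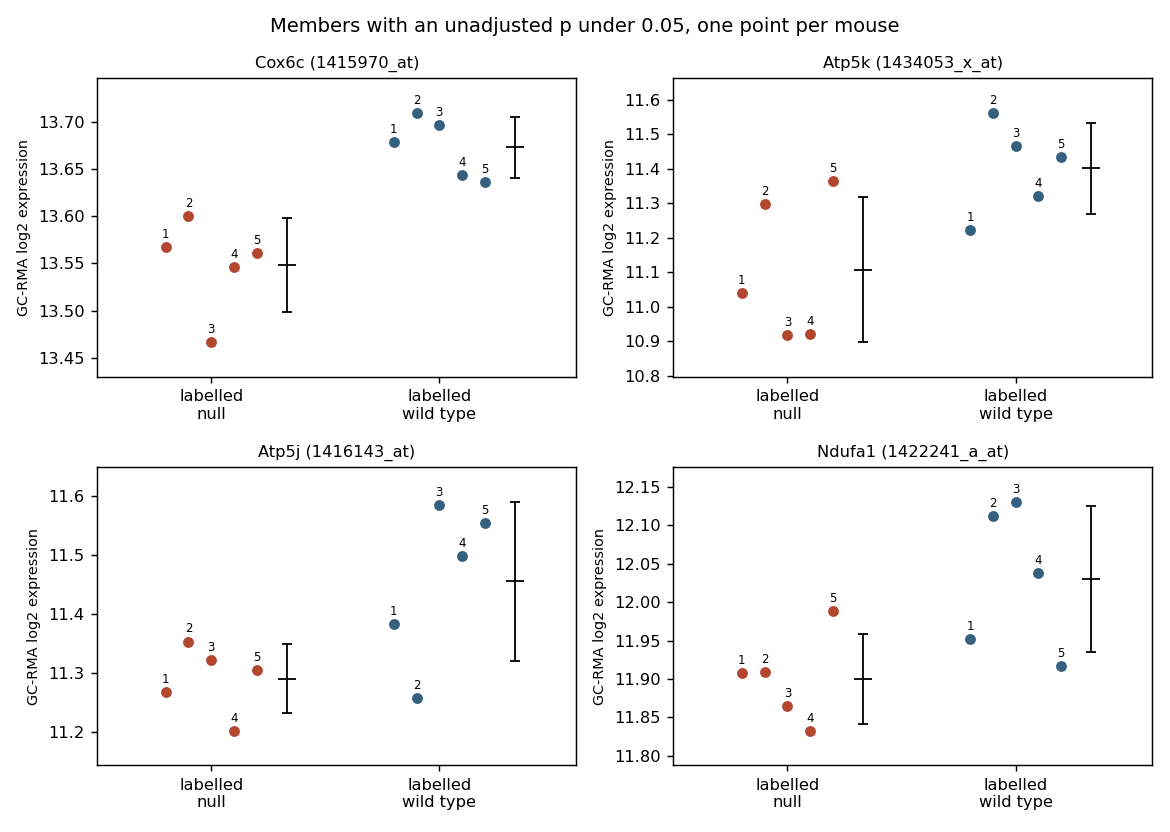
GC-RMA log2 expression in each mouse (points, numbered by replicate) of the 4 members with an unadjusted p under 0.05, with the mean and SD of each label (black bar). Cox6c is the one gene in which all 5 mice labelled null (13.47 to 13.60) lie below all 5 labelled wild type (13.64 to 13.71).

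The genes of the catalytic head differed little. Atp5b, the beta subunit that makes ATP, averaged 13.33 ± 0.12 in labelled null and 13.36 ± 0.10 in labelled wild type (SD, n = 5 each). The alpha subunit Atp5a1 differed by -0.04 (SE 0.05, interval -0.16 to 0.08) and the gamma subunit Atp5c1, the central shaft, by 0.05 (SE 0.06, interval -0.09 to 0.19). Subunit c forms the proton-driven ring and is made from 3 genes that encode the same mature protein. Of these, Atp5g1 differed by -0.17 (SE 0.08), Atp5g2 by -0.00 (SE 0.09) and Atp5g3 by -0.07 (SE 0.06). Atp5l (subunit g), a neighbour of subunit e in the membrane, differed by 0.12 (SE 0.12).

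The check with further probe sets left the calls few but all on one side. Among the 71 other probe sets of members, 57 (80.3%) were below 0 and 14 above, with a median of -0.05, against 50.2% below 0 among all probe sets and 68.6% among the bright genes. Of the 71, 3 had an unadjusted p under 0.05 (Uqcrb, Sdha and Cox6c, all lower in labelled null). Over all 154, 7 (4.55%) were lower in labelled null and 0 higher, against 2.43% and 1.24% of all 22626 probe sets. The sign matched that of the brightest probe set in 45 of the 71. Of the 56 with a mean of at least 4, 19 correlated with it above 0.5 over the 10 mice. Many of these genes have processed pseudogenes, and probes shared with such copies cannot be told apart from the gene.

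Mouse by mouse, the respiratory chain as a whole did not separate the labels. The median deviation of the 83 members from each gene's mean over all arrays lay between -0.08 and 0.05 in the mice labelled null and between -0.03 and 0.05 in those labelled wild type. The lowest were labelled null mice 3 (-0.08) and 4 (-0.06), and labelled null mouse 5 (0.05) lay with labelled wild type mouse 4 (0.05) at the top. Over the 1903 bright genes labelled null mice 3 and 4 were likewise below 0 (-0.04 and -0.09). Labelled null mouse 5 (0.12) and labelled wild type mouse 4 (0.06) were again the highest there. For complex I the ranges were -0.10 to 0.12 in labelled null and -0.04 to 0.04 in labelled wild type, and for ATP synthase -0.11 to 0.06 in labelled null and -0.04 to 0.07 in labelled wild type. The groups overlapped in each of the 5 complexes.

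**Figure D4:**
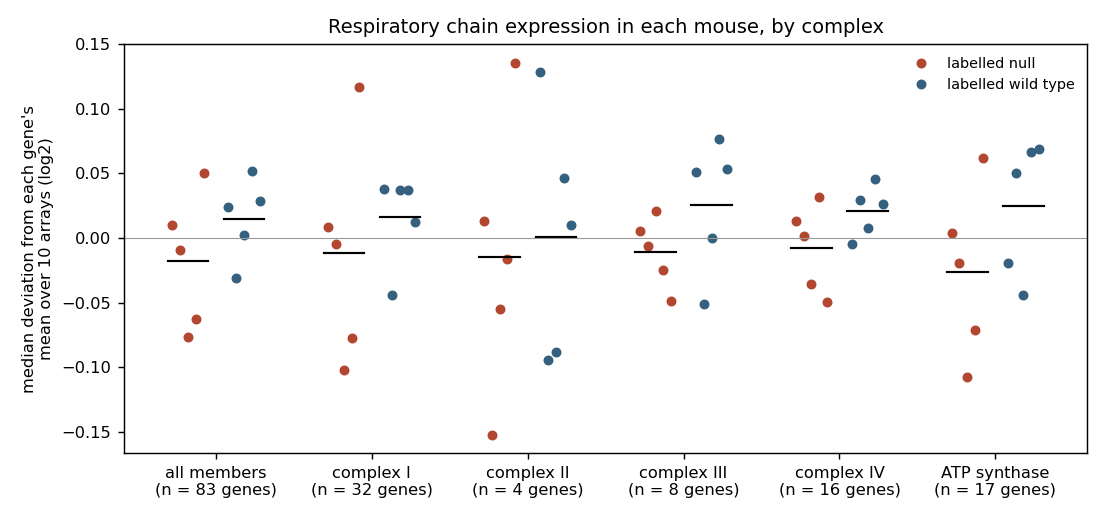
Median deviation of the members from each gene's mean over the 10 arrays (log2) in each mouse (points) for all members and for each complex, with the mean over the 5 mice of a label (black line). For all members the mice labelled null lie from -0.08 to 0.05 and those labelled wild type from -0.03 to 0.05, and the labels overlap in every column. The bright genes as a whole, not drawn, lie from -0.09 to 0.12 in labelled null and from -0.02 to 0.06 in labelled wild type.

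How far members moved together across mice depended on the mice included. Over the 10 arrays the median pairwise correlation was 0.10 between members (3403 pairs), and 0.17 between the 62 bright members, against 0.17 between all 1903 bright genes. All these pairs share the same arrays and their scaling. Within complex I the median was 0.17, within ATP synthase 0.16, within complex IV 0.03 and within complex III -0.07. Without labelled null mouse 5 and labelled wild type mouse 2 it was 0.19 between the bright members, against 0.13 between all bright genes, and it was 0.26 within ATP synthase and 0.22 within complex III.

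Labelled wild type mouse 2 and labelled null mouse 5 held the lowest or highest value of the largest shares of members. Labelled null mouse 5 held the lowest or highest value of 30.1% of the members, against 24.99% of all genes and 36.2% of the bright genes. Its share of members was thus below that of the bright genes. Labelled wild type mouse 2 held that of 43.4% of the members, against 35.3% of all genes and 32.4% of the bright genes. Labelled null mouse 3 held that of 25.3% of the members, being lowest in 19, against 14.3% of all genes and 14.5% of the bright genes. Ndufa3, an accessory subunit of complex I, was at 10.15, 10.20, 9.49, 9.97 and 8.21 in the mice labelled null and from 9.08 to 10.17 in those labelled wild type. Labelled null mouse 5 and labelled wild type mouse 2 were each the lowest of their label. Its second probe set, 1428464_at, varied in the same way over the 10 mice (r = 0.85). The difference between labels was -0.05 (SE 0.37) on the brighter probe set and 0.10 (SE 0.23) on the second.

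The number of members called depended on which mice were included. Without labelled null mouse 5, 14 members (16.9%) were lower in labelled null at the unadjusted p and 0 higher, but so were 5.96% of all genes and 17.1% of the bright genes. Of the 62 bright members, 12 (19.4%) were lower. Without labelled null mouse 1 or 4, 2 members (2.41%, Atp5k and Cox6c) were lower. Of all genes 2.28% were lower without mouse 1 and 1.83% without mouse 4, and of the bright genes 6.25% and 3.89%. Without mouse 4, 1 member (Ndufaf7) was higher, against 0.960% of all genes. Leaving out labelled wild type mouse 1 gave 7 lower (8.43%) and 1 higher (Ndufs7), against 4.15% and 1.32% of all genes. Of the bright genes 10.5% were then lower, and of the 62 bright members 7 (11.3%). Leaving out labelled wild type mouse 2 gave 6 lower (7.23%) and 1 higher (Cox8c), against 1.99% and 2.15% of all genes. Of the bright genes 5.68% were then lower, and of the bright members 6 (9.68%). Leaving out both that mouse and labelled null mouse 5 was a choice made after seeing the data. It gave 12 lower (14.5%) and 1 higher, against 4.58% and 2.78% of all genes. Of the bright genes 13.7% were then lower, and of the bright members 12 (19.4%). Atp5k stayed at an unadjusted p under 0.05 in all 19 refits and Cox6c in 18, whereas Atp5j did so in 10 and Ndufa1 in 8. The adjusted p passed 0.05 for no member in any refit, the lowest being 0.469.

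**Figure D5:**
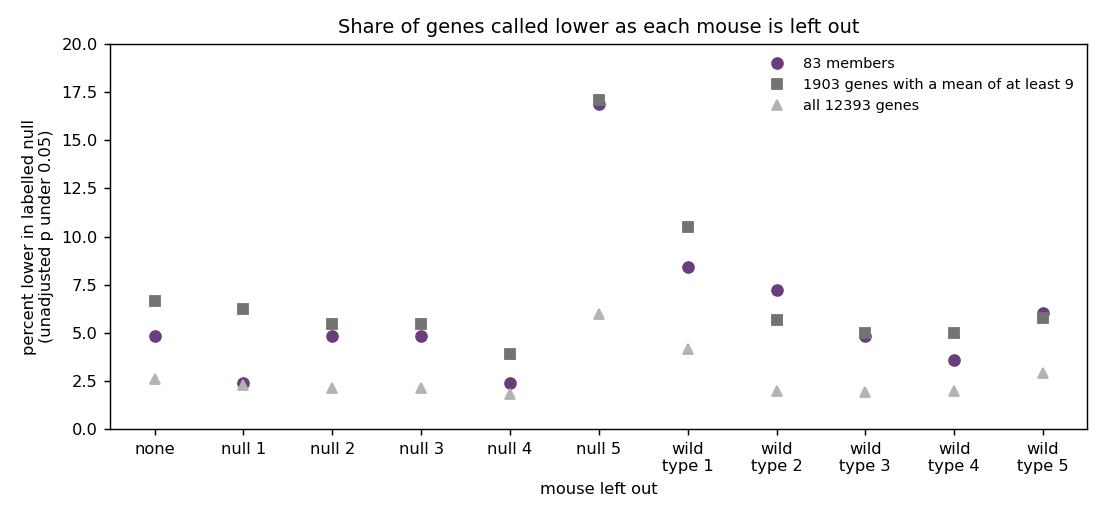
Percent of genes lower in labelled null at an unadjusted p under 0.05 (limma) with all mice and with each mouse left out, for the 83 members (circles), the 1903 genes with a mean of at least 9 (squares) and all 12393 genes (triangles). The share of members reaches 16.9% without labelled null mouse 5, where that of the bright genes reaches 17.1%. The 83 members include some below that mean, and the share of the 62 bright members, not drawn, is 19.4% there.

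Sequence of the ES cell strain was detected in the null line at Homer2 and at Gprc5b, on either side of FE65 on chromosome 7. Whether it is continuous between them, and how far it reaches, was not mapped. Of the 8 members on chromosome 7 (Ndufa3, Ndufab1, Uqcrc2, Cox6a2, Cox6b1, Cox6b2, Cox7a1 and Cox8b), 0 lie between Homer2 and Gprc5b. Ndufc2, a complex I gene, does lie between them but was left out by the rule for members, so this 0 depends on that rule. The nearest members were Uqcrc2, 13 measured genes beyond Gprc5b, and Ndufab1, 26 beyond it. Uqcrc2, a core protein of complex III, was at 9.46, 9.87, 10.12, 9.55 and 10.74 in the mice labelled null and at 9.89, 10.26, 10.42, 10.02 and 10.27 in those labelled wild type (difference -0.22, SE 0.22). Without labelled null mouse 5, the highest of all, it was -0.42, past the unadjusted threshold. Its second probe set, 1428631_a_at, differed by 0.01 (SE 0.12). Ndufab1, the mitochondrial acyl carrier protein, differed by -0.05 (SE 0.09), and none of the 8 had an unadjusted p under 0.05.

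Genes that serve the chain were read in the same way. Cytochrome c (Cycs), the electron carrier to complex IV, differed by -0.17 (SE 0.12) and cytochrome c1 (Cyc1), a complex III subunit outside the naming rule, by 0.11 (SE 0.08). Of 33 measured assembly factors (47 listed, the Ndufaf members included), 0 were called in either direction, with a median of -0.02. Of 16 enzymes of the TCA cycle and pyruvate dehydrogenase, 2 were lower in labelled null at the unadjusted p and 0 higher, and 12 of the 16 were bright. The calls were Sucla2, a succinyl-CoA synthetase subunit (-0.21, SE 0.07), and Fh1, fumarase (-0.19, SE 0.08). Calls in this list and the next ones stand against 2.61% lower among all genes and 6.67% among the bright genes.

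Of 10 measured mitochondrial carriers, porins and creatine kinases, 1 was lower, the mitochondrial creatine kinase Ckmt1 (-0.34, SE 0.11), and 0 higher. Of 15 regulators of mitochondrial biogenesis, 1 was lower, the mitochondrial transcription factor Tfb2m (-0.17, SE 0.07), 0 were higher, and 13 were below 0 with a median of -0.11. The coactivator Ppargc1a differed by -0.25 (SE 0.19) and Tfam, which packages mitochondrial DNA, by -0.10 (SE 0.15). Among 13 enzymes of glycolysis, 1 was lower, the neuronal enolase Eno2 (-0.29, SE 0.10), and 0 higher. All these calls had adjusted p = 0.999 (limma, Benjamini-Hochberg). Differences below 0 were about as common in the TCA cycle, carrier and glycolysis lists as among the biogenesis regulators. They were 14 of 16 in the TCA cycle list, 8 of 10 among carriers, porins and creatine kinases, and 11 of 13 in glycolysis. Of the assembly factors, 19 of 33 were below 0. Below 0 were 51.2% of all genes and 68.6% of the bright genes. Bright were 12 of 16 genes in the TCA cycle list, 8 of 10 carriers, porins and creatine kinases, and 13 of 13 in glycolysis. Only 2 of the 15 biogenesis regulators and 6 of the 33 assembly factors were bright, and 4 of those regulators had a mean under 4.

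In bulk cortex, fewer cells of a type and less RNA per cell cannot be told apart. Beside the calls among members, 2 of 5 neuronal markers (Rbfox3 and Nefl) and 2 of 5 measured myelin markers (Mbp and Cldn11) were also lower in labelled null at the unadjusted p, against 2.61% of all genes. All 5 myelin markers were below 0, while neuronal markers lay on both sides, from -0.37 (Rbfox3) to 0.25 (Map2), with 2 of 5 above 0. The mean level of the neuronal list ranged from 9.88 to 10.29 in labelled null and from 10.03 to 10.41 in labelled wild type, and that of the myelin list from 9.02 to 9.41 in labelled null and from 9.25 to 9.84 in labelled wild type. No marker of inhibitory neurons, excitatory neurons, astrocytes, microglia, endothelial cells, choroid plexus or blood was called, and the blood list lay at 1.93 to 1.97 in labelled null and 1.90 to 2.11 in labelled wild type. The part of cell make-up in the differences of the members was not tested.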

How the data were processed

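Cerebral cortex RNA of 5 mice labelled *p97FE65* null and 5 labelled wild type was hybridized to 1 array per mouse. The groups are those of the labels. The values are log2 signals deposited by the authors after GC-RMA, which removes background according to the GC content of each probe, scales the arrays to each other and gives 1 value per probe set. No source used here states its version. Array medians ranged from 3.01 to 3.14 and array correlations from 0.994 to 0.999. Without 64 controls, 22626 probe sets were tested. Of these, 20380 carry 1 gene in the platform annotation, 691 carry several and 1555 carry none. RefSeq GRCm38.p6 held the gene of 20351 of the first kind, all 83 members included. Another 8 probe sets that name several genes, 1 of them by the rule, were left out.

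Differences (labelled null minus labelled wild type) came from limma 3.58.1 in R 4.3.3 (lmFit, eBayes), with Benjamini-Hochberg adjustment over all probe sets. The p-values measure the spread among these mice. Exact permutation tests (two-sided) used scipy 1.17.1. The fit was checked on simulated data of 22626 probe sets, with 100 changed by 0.5 and 100 by 1 (log2). At an adjusted p under 0.05 it recovered 48% of the changes of 0.5 and 83% of those of 1, with 6 false calls. The changes were planted together, in brighter probe sets alone, with normal noise drawn independently for each value. With fewer true changes the adjusted threshold is stricter, so these shares need not hold for the measured data. Smaller changes, or fewer of them, were not simulated. Named were members with an unadjusted p under 0.05, the 2 with the smallest p in each direction for complexes I, III, IV and V, complex II, members on chromosome 7, core and catalytic subunits, isoform families, the 3 with the widest spread, and members whose probe sets disagreed. Further members were named after their values were seen. The members and lists were chosen with earlier results of these data known. The alternatives were a replicate block, median centring, quantile normalization, array weights, a robust prior with a trend over intensity, values under 4 set to 4, leaving out means under 5, the methods' t-test, other ways to choose the probe set or the members, and leaving out each array.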

Additional observations from a re-analysis of the deposited data

Results flagged for a closer look

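In 11 of 94 groups of 5 mice tested among the named members, 1 mouse lay far from the other 4 (Dixon's test, critical value 0.71). Chance flags about 1 in 20 groups, but these members were named in part for their spread, so the count is not set against that rate. The cause was not tested. Of these, 4 concerned labelled wild type mouse 2, which was low in Uqcrb (10.28, nearest mouse 13.13), Ndufs3 (9.94, nearest 10.95) and Cox4i1 (12.37, nearest 12.59) and high in Uqcr11 (10.45, nearest 10.08). Another 3 concerned labelled null mouse 5, which was low in Uqcrb (12.34, nearest 12.96) and high in Sdhb (11.66, nearest 11.30) and Sdhc (9.17, nearest 8.82). Labelled null mouse 1 was high in Atp5l (10.85, nearest 10.34), Atp5h (11.87, nearest 11.70) and Uqcrc1 (11.72, nearest 11.64). Labelled wild type mouse 3 was low in Uqcrh (9.38, nearest 9.49). The difference between the Gapdh control probe sets for the opposite ends of the transcript, which grows as RNA breaks down, ranged from -0.07 to 0.12 in the mice labelled null and from -0.04 to 0.27 in those labelled wild type, with mouse 2 of that label highest. The same difference for Actb ranged from -0.03 to 0.37 in labelled null, with mouse 3 highest, and from -0.03 to 0.35 in labelled wild type, with mouse 5 highest and mouse 2 at 0.18. The part of either in these values was not tested.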

How the results depend on the processing

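No member passed an adjusted p of 0.05 under any alternative. The count lower in labelled null at an unadjusted p, 4 of 83, became 8 with array weights, 2 with an intensity trend and robust prior, 2 with quantile normalization, 1 of 74 without probe sets of a mean under 5, 12 without labelled null mouse 5 and labelled wild type mouse 2 together, and 2 to 14 as each mouse was left out. The share lower among all genes, 2.61%, became 3.97%, 2.05%, 1.78%, 3.52% and 4.58% in these fits, in that order. It was 1.83% to 5.96% as each mouse was left out. Among the bright genes the share, 6.67%, became 11.2%, 5.36%, 3.68%, 4.47% and 13.7%, and was 3.89% to 17.1% as each mouse was left out. The count higher, 0, became 1 with array weights, 3 with quantile normalization, 1 without labelled null mouse 5 and labelled wild type mouse 2 together, and 0 to 1 as each mouse was left out. The share higher among all genes, 1.33%, became 2.82%, 2.70% and 2.78% in these fits, and 0.960% to 2.15% as each mouse was left out. The median over members stayed from -0.04 to -0.00 as each mouse was left out, and was 0.01 with quantile normalization. The cause was not tested. With the replicate number as a block 5 members were lower and 1 higher, against 3.63% and 1.57% of all genes. The numbers were not taken as pairs, however. Deviations from the group means over all probe sets tested correlated at 0.05 to 0.46 between same-numbered mice. By this correlation, in number 1 alone was each mouse closest to its own number. Over 868 refitted values of 46 named members, 819 kept their side of the threshold, 21 lost and 28 gained an unadjusted p under 0.05. Of these values 82, in 19 members, changed sign, none of them past the threshold. For dim probe sets low signal limits what a difference can show.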
